A study of Homo sapiens with 17 samples.

Results

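The genes described here are 42 chaperones, folding enzymes and stress factors of the endoplasmic reticulum (ER), the compartment in which secreted and membrane proteins are folded. A gene belonged to this module when the symbol in its entry name was one of 42 listed symbols. Of these, 41 were found among the 58870 entries of the count table, and all 41 passed the filter on low counts, as members of the 15365 genes tested. VIMP was not listed under that symbol. The table lists SELENOS, its newer symbol, whose values are given separately.

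RNA was measured by stranded, paired-end sequencing of poly(A) RNA in MDA-MB-231, an established human line from a triple-negative breast cancer. The cells had received 45 nM TRAIL, a death ligand of the TNF family, for 0, 1, 3, 6, 12 or 24 h. The dose was described as suboptimal, with the aim of measuring live and not apoptotic cells. There were 3 libraries at each time except 1 h, which had 2. Every group was this 1 line in the same medium with serum, and the libraries at 0 h carry the same treatment label as the others. No group analysed here was left untreated to a later time, so time with TRAIL and time in culture cannot be told apart. The labels do not say whether replicates came from separate cultures, so p-values measure only the spread between these libraries.

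The library totals lay between 13731497 and 19234939 counts. All 8 mesenchymal transcripts listed for this line were present, with VIM at a median of 3350 CPM, counts scaled to a common library total, and ESR1, PGR and FOXA1 were at or near 0. KRT18 (median 662 CPM), ERBB2 (62.8 CPM), EPCAM (16.5 CPM) and GATA3 (10.7 CPM) were present although they were listed as low or absent, and CDH1 was at 0.436 CPM. Of the markers of other cells, PTPRC and CD3E (blood), CDH5 and VWF (vessel) and DCN (stroma) were at or near 0. CD14 had a median of 1.46 CPM. COL1A1 (median 10.1 CPM), COL1A2 (6.98 CPM) and PDGFRB (2.80 CPM), listed for fibroblasts, were present, and the summed list with DCN lay between 17.8 and 25.3 CPM. The summed vessel list, nearly all PECAM1, lay between 1.06 and 1.93 CPM at 0 h and between 2.85 and 4.10 CPM at 24 h, and its part in the results was not tested. Mitochondrial genes took 6.75 ± 1.46% of counts at 0 h, 8.59 ± 0.521% at 3 h and 3.90 ± 0.240% at 24 h (SD, n = 3 each). The dependence of counts on transcript length also moved with time. The slope of log2 CPM on length per doubling, relative to the mean library, was -0.142 to -0.062 in the libraries at 3 h and 0.024 to 0.139 in those at 24 h. Fold changes are therefore also given with each library's smooth trends on length and GC content removed as an offset. Length and GC content were those of the longest protein-coding transcript of each gene in GENCODE, or its longest transcript where none was coding. That transcript may not be the form expressed here, and values per kilobase and with the offset depend on this choice. Replicates 2 and 3 at 6 h and at 24 h were closer to each other than any other pair, with a chi-square per gene of 1.57 and 1.68 against 3.62 to 13.2 elsewhere.

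When unfolded proteins build up in the ER, HSPA5 (BiP) is drawn off the luminal domains of the membrane sensors. Activated IRE1 (ERN1) splices XBP1 mRNA, ATF6 is cut by the proteases MBTPS1 and MBTPS2 and enters the nucleus, and PERK (EIF2AK3) slows translation and favours that of ATF4. XBP1 and ATF6 raise chaperones and the machinery that returns misfolded proteins to the cytosol for degradation (ERAD). Splicing of XBP1, cleavage of ATF6 and kinase activity are not seen in gene counts.

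Many members are known targets of ATF6 and XBP1, so the matching DNA elements are shown before the values. RefSeq promoters (GRCh38.p14, 250 bases before to 50 after each start) were matched for 39 of the 42 symbols, and not for DERL1, PDIA3 and VIMP. The ER stress element (ERSE, CCAAT, then 9 bases of any kind, then CCACG, on either strand) was found in 8 of these 39 genes (20.5%) and in 0.0916% of all 27305 genes with a promoter, or 0.0769% of all 35116 promoters. Because many members are known targets, the shares here and in the next paragraph describe the list and are no independent result. The lines give each match in capitals with 6 flanking bases, 5′ to 3′ on the gene's strand, and some matches lie on the other strand.
HSPA5: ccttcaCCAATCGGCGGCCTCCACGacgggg
HSP90B1, distal: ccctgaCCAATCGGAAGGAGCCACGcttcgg
HSP90B1, proximal: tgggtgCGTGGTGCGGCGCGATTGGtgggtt
CALR: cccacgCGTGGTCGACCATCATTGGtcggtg
CANX: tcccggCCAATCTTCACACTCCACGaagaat
PDIA6: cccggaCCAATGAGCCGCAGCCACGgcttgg
CRELD2: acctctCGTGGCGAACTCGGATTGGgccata
XBP1: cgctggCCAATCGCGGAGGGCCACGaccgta
ERO1B: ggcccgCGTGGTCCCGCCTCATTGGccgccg
The HSPA5 match is at chr9:125241391-125241409 (minus strand, 66 to 48 bases before the start), and that of CRELD2 is at chr22:49918554-49918572 (plus strand, 80 to 62 bases before the start).

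The second element, ERSE-II (ATTGG, then 1 base of any kind, then CCACG, on either strand), was found in HYOU1, SDF2L1 and HERPUD1, which is 7.69% of the matched members against 0.0696% of all genes with a promoter (0.0541% of promoters). The lines are laid out in the same way.
HYOU1, distal: ccgtgaCGTGGTCCAATcccagg
HYOU1, proximal: ctgggaCGTGGTCCAATgagtac
SDF2L1: cggaagCGTGGACCAATcaaaac
HERPUD1: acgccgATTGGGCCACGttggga
The HERPUD1 match is at chr16:56932025-56932035 on the plus strand. HYOU1 holds a pair of matches, and the distal one overlaps a match to the UPR element (TGACGTGG, either strand). That element was also found in DNAJC10 and SEC62 and in 0.729% of all promoters. The C/EBP-ATF element (TGATGNAA, either strand) was found in HERPUD1 and in 3.62% of all promoters. A match is a description of the letters and not evidence of binding. As context for the best known of these promoters, the 250 bases before the HSPA5 start (chr9:125241344-125241593, minus strand) are given with the ERSE in capitals.
HSPA5 upstream: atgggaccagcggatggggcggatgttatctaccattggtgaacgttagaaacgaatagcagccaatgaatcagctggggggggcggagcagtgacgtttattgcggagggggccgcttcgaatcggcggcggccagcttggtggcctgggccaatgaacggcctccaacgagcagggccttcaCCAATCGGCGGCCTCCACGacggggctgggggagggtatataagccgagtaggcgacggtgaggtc

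As a share of all counts, the module was lowest at 3 h and highest at 24 h. Its 41 genes held 0.969 ± 0.0357% of all counts at 0 h, 0.855 ± 0.0238% at 3 h and 1.15 ± 0.0108% at 24 h (SD, n = 3 each), and the libraries of these 3 times did not overlap. The shares at 1, 6 and 12 h averaged 0.933%, 0.953% and 1.04%. The mitochondrial share was highest of these 3 times at 3 h and lowest at 24 h, and from 6 to 12 h both shares were higher. With mitochondrial counts left out of the total, a denominator chosen after seeing the data, the share was 1.04 ± 0.0278% at the start (0 h), 0.935 ± 0.0207% at 3 h and later 1.20 ± 0.0140% at 24 h, again without overlap. Abundant genes weigh most in these sums, and CALR, HSP90B1, HSPA5, CANX and P4HB averaged 934 to 1406 CPM at 0 h. By mean level, HSP90B1 and CANX were lowest at 3 h, HSPA5 and CALR at 6 h and P4HB at 12 h. In bulk RNA, a change in the number of cells that express a gene and a change in RNA per cell cannot be told apart.

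A gene was called when its adjusted p in edgeR's quasi-likelihood test was below 0.05, with Benjamini-Hochberg adjustment over all genes tested. Shares of all genes called are from this main fit, and none are given for the alternative fits. At 1 h against 0 h, 0 of the 41 members were called, where 0.312% of all genes were (0.26% higher and 0.0521% lower). At an unadjusted p below 0.05 there were 2, and DESeq2 and limma-voom also called 0. At 3 h, 2 members were higher and 10 lower, 12 of 41 in all, where 17.7% of all genes were called (9.04% higher and 8.71% lower). The median log2 fold change was -0.14 over the members and -0.00 over all genes. This count rested on single libraries: it was 6 without 0 h replicate 2, 5 without 0 h replicate 3, and 7 without 3 h replicate 1 or 3 h replicate 2. It was 19 with the length and GC offset and the replicate number as a block. Scaled by library size alone, it split into 1 higher and 16 lower. HERPUD1, ATF6, PDIA6 and PDIA4 (lower) and SEC61B (higher) were called under every alternative run.

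At 6 h, 10 members were higher than at 0 h and 8 lower, 18 of 41 in all, where 30.1% of all genes were called (16.9% higher and 13.2% lower). The count was 11 without 0 h replicate 1, 10 without 6 h replicate 2, 7 without 6 h replicate 3 and 7 with replicates 2 and 3 averaged at 6 h and 24 h. HSPA5, PPIB (lower) and ERN1 (higher) were called under every alternative. At 12 h, 4 were higher and 2 lower, 6 in all, where 12.4% of all genes were called (5.96% higher and 6.48% lower), and 3 were called without 0 h replicate 1, 0 h replicate 2 or 12 h replicate 2. With the length and GC offset the count was 10. HSPA5 (higher) and P4HB (lower) were called under every alternative. At 24 h, 18 were higher and 5 lower, 23 in all, where 35.1% of all genes were called (18% higher and 17.1% lower). The median log2 fold change was 0.14 over the members (0.11 with the offset) and -0.00 over all genes. This count lay between 18 and 25 over all alternatives, and 12 of the 23 calls held in each of them.

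**Figure D1:**
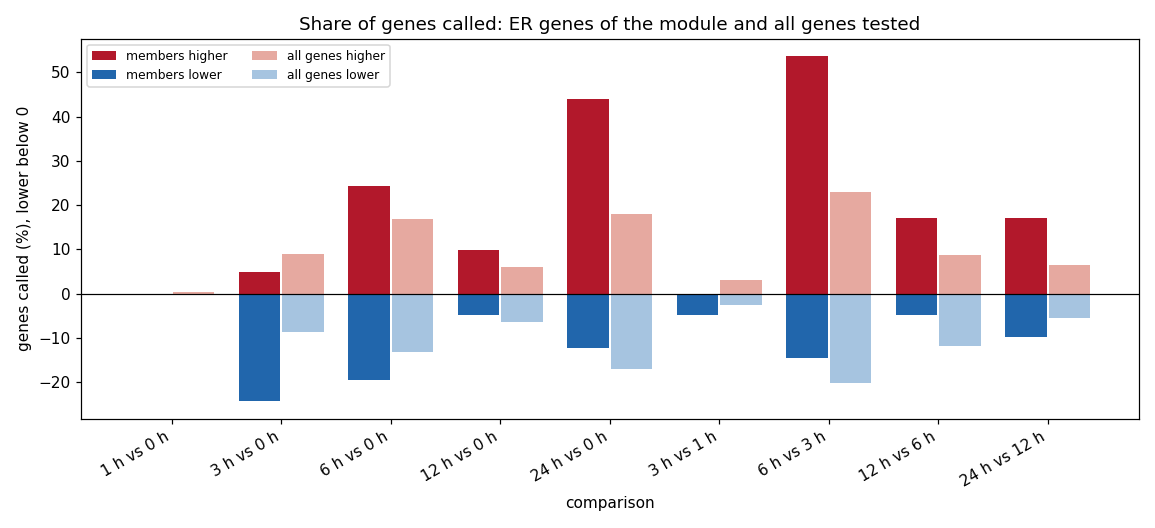
Share of genes called (%, y axis, lower genes drawn below 0) in each comparison (x axis), in dark bars for the 41 members and in pale bars for all genes tested. The members' bars for higher genes are tallest at 6 h against 3 h and at 24 h against 0 h, where 22 and 18 of 41 were higher.

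The interval from 3 to 6 h held the most calls of any step between neighbouring times. There, 22 members rose and 6 fell, 28 of 41, where 43.2% of all genes were called (22.9% higher and 20.3% lower), and the count lay between 19 and 30 over the alternatives. There the median was 0.24 over the members (0.11 with the offset) and -0.02 over all genes. From 1 to 3 h, 2 members were called, both lower, where 5.73% of all genes were called (3.17% higher and 2.56% lower), and 0 were called without 1 h replicate 2 and 1 without 1 h replicate 1, 3 h replicate 1 or 3 h replicate 2. That count was 5 without a filter on low counts, 0 in a fit of only the 2 groups and 9 with the offset. From 6 to 12 h, 7 rose and 2 fell, where 20.6% of all genes were called (8.7% higher and 11.9% lower), and 5 in all were called without 6 h replicate 2. From 12 to 24 h, 7 rose and 4 fell, where 12% of all genes were called (6.42% higher and 5.6% lower). That count was 2 without 12 h replicate 1, 24 h replicate 2 or 24 h replicate 3, and 7 without 12 h replicate 3. It was 2 with averaged replicates and 19 with the offset, and with library size alone it split into 9 higher and 2 lower. A joint F-test of the 5 later times against 0 h called 34 of the 41 members, where 64.2% of all genes were called. These comparisons share libraries and are not independent of each other.

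By mean level, 23 of the 41 members (56.1%) were lowest at 3 h, as were 25.4% of all genes tested. A further count put 20 members (48.8%) highest at 24 h, as were 22.6% of all genes. The range of a member's means over the 6 times had a median of 0.43 on the log2 scale, from 0.08 for PDIA5 to 0.98 for EIF2AK3. Over all genes the median range was 0.51.

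**Figure D2:**
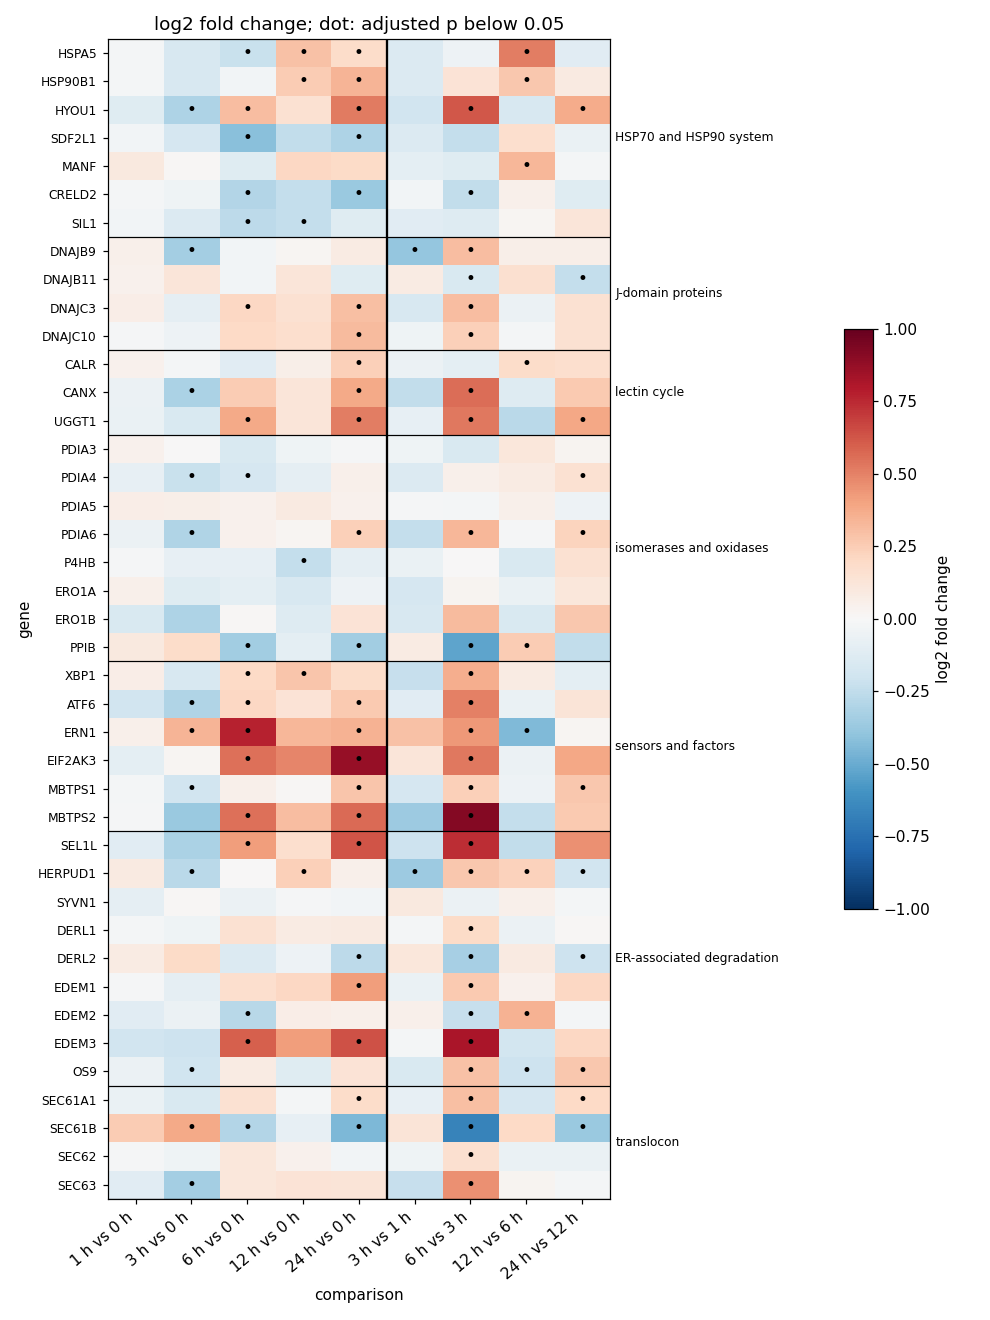
Log2 fold change (colour) of each of the 41 members (y axis, grouped by role) in each comparison (x axis), with a dot where edgeR's adjusted p was below 0.05. The column of 6 h against 3 h holds 28 dots, and the column of 1 h against 0 h holds none.

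Among the 7 chaperones and co-factors of the luminal HSP70 and HSP90 system, 1 was higher and 4 were lower at 6 h than at 0 h, where 16.9% of all genes were higher and 13.2% lower. At 24 h 3 were higher and 2 lower, where 18% of all genes were higher and 17.1% lower. HSP90B1 and HSPA5 of this group are among the most abundant transcripts of the module. Per kilobase of transcript at 0 h, HSP90B1 stood at 420 CPM per kb and HSPA5 at 292. Of the other role groups, CALR stood at 739, PPIB at 419 and P4HB at 359, whereas ERN1 stood at 1.3. HSPA5, the ER HSP70 that binds unfolded chains and holds the sensors inactive, had 1158, 1097 and 1168 CPM at 0 h, 1099 and 1146 CPM at 1 h and 994, 1002 and 1064 CPM at 3 h. It had 1011, 968 and 969 CPM at 6 h, 1357, 1444 and 1396 CPM at 12 h and 1378, 1255 and 1251 CPM at 24 h. All libraries at 3 h and 6 h lay below, and all at 12 h and 24 h above, those at 0 h. The log2 fold change at 3 h (-0.16) was not called in the main fit and was called with the offset (-0.15, edgeR adjusted p = 0.0194). Set against 0 h, the log2 difference was -0.22 at 6 h (SE 0.0562, edgeR adjusted p = 0.00756) and 0.29 at 12 h (SE 0.0562, adjusted p = 0.00233). From 6 to 12 h it rose by 0.51 (adjusted p = 4.6e-06). The call at 24 h (0.18, adjusted p = 0.0168) ended without 0 h replicate 2, without 24 h replicate 1, in a fit of only the 2 groups and with the offset (0.09, adjusted p = 0.12).

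HSP90B1 (GRP94), the ER HSP90 that folds integrins and Toll-like receptors among others, was also highest late. It had 1167, 1167 and 1265 CPM at 0 h, 1188 and 1175 CPM at 1 h and 1040, 1014 and 1159 CPM at 3 h. It had 1190, 1190 and 1153 CPM at 6 h, 1342, 1525 and 1401 CPM at 12 h and 1611, 1475 and 1458 CPM at 24 h. The libraries at 3 h all lay below, and those at 12 h and 24 h all above, those at 0 h. At 3 h its log2 fold change was -0.16, not called in the main fit, and -0.13 with the offset (edgeR adjusted p = 0.0106). The log2 fold change at 24 h was 0.34 (SE 0.0648, edgeR adjusted p = 7.4e-04), and it was called under every alternative. The call at 12 h (0.25) ended without 0 h replicate 1, 0 h replicate 2 or 12 h replicate 2. HYOU1 (GRP170), a large HSP70 relative that exchanges nucleotide on HSPA5, had 195, 234 and 225 CPM at 0 h, 170, 174 and 183 CPM at 3 h, 245, 277 and 289 CPM at 6 h and 288, 323 and 328 CPM at 24 h. Its libraries at 3 h lay below and those at 6 h and 24 h above all at 0 h. It rose by 0.62 from 3 to 6 h (SE 0.0872, adjusted p = 5.6e-05) and by 0.52 at 24 h against 0 h (SE 0.0863, adjusted p = 2.4e-04). With the offset these were 0.51 and 0.45. MANF, a secreted protein released on ER stress, stood at 74 ± 4.36 CPM in the 6 h libraries and higher, at 92.9 ± 1.54, in those of 12 h (SD, n = 3 each; log2 0.33, adjusted p = 0.00489). Against 0 h it was not called at any time in the main fit, and with the offset it was called higher at 12 h (0.21 in the main fit, 0.32 with the offset, adjusted p = 3.0e-04) and at 24 h (0.19 and 0.41, adjusted p = 7.5e-06).

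SDF2L1, CRELD2 and SIL1 were lower at 6 h. SDF2L1, a stress-induced component of the HSPA5 chaperone cycle, had 18.9, 20.6 and 19 CPM at 0 h, 17.7 and 20.5 CPM at 1 h and 17.9, 19.7 and 14.3 CPM at 3 h. It had 14.9, 14.7 and 14.2 CPM at 6 h, 17.1, 13.9 and 18.5 CPM at 12 h and 17.1, 15.4 and 14.5 CPM at 24 h. The libraries at 6 h, 12 h and 24 h all lay below those at 0 h. At 3 h its log2 fold change was -0.17, not called in the main fit, and -0.37 with the offset (edgeR adjusted p = 0.00102). The log2 fold change at 6 h was -0.42 (SE 0.114, edgeR adjusted p = 0.0102), and with the length and GC offset it was -0.10 (adjusted p = 0.318). At 24 h it was -0.31, a call that ended without any 1 of the 0 h libraries, without 24 h replicate 2 or 3, with library size alone and with averaged replicates, and it was 0.12 with the offset.

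CRELD2, a secreted stress-induced protein, had 18.3, 18.3 and 17.5 CPM at 0 h, 17.1 and 18.6 CPM at 1 h and 17.3, 19.5 and 15.8 CPM at 3 h. It had 14.8, 15.1 and 14.4 CPM at 6 h, 15.1, 15.2 and 15.5 CPM at 12 h and 15, 13.2 and 13.7 CPM at 24 h, and every library from 6 h on lay below those at 0 h. At 24 h its log2 fold change was -0.37 (SE 0.084, edgeR adjusted p = 0.00266) and -0.14 with the offset (adjusted p = 0.147). The call at 6 h (-0.29) ended without 6 h replicate 3 and with the offset (-0.09). SIL1, a nucleotide exchange factor of HSPA5, had 63.3, 61.1 and 62.5 CPM at 0 h, 59.8 and 62.3 CPM at 1 h and 55.5, 61.7 and 53.1 CPM at 3 h. It had 51.4, 50.8 and 53.7 CPM at 6 h, 49.1, 52.2 and 56.6 CPM at 12 h and 60, 56.8 and 54.7 CPM at 24 h. The libraries from 6 h on lay below those at 0 h. At 6 h its log2 fold change was -0.26 (adjusted p = 0.0069), and -0.12 with the offset (adjusted p = 0.0913). At 12 h it was -0.24, a call that ended without 0 h replicate 1, 12 h replicate 1 or 12 h replicate 2 and with the offset.

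From 3 to 6 h all 6 sensors, factors and proteases, ERN1, EIF2AK3, ATF6, XBP1, MBTPS1 and MBTPS2, rose, where 22.9% of all genes were higher. At 24 h 5 of the 6 were higher than at 0 h and none was lower, where 18% of all genes were higher and 17.1% lower. From 6 to 12 h 1 of the 6 was called, ERN1, which was lower, where 8.7% of all genes were higher and 11.9% lower. ERN1, the IRE1 kinase and nuclease, had 9.96, 10.7 and 10.2 CPM at 0 h, 11.2 and 10.1 CPM at 1 h and 13.6, 11.3 and 14.2 CPM at 3 h. It had 15.4, 20.4 and 16.8 CPM at 6 h, 13.7, 13.5 and 11.6 CPM at 12 h and 12.4, 13 and 13.9 CPM at 24 h. No library at 6 h overlapped those of any other time. It rose by 0.77 at 6 h against 0 h (SE 0.112, edgeR adjusted p = 7.6e-05; 0.59 with the offset). From 3 to 6 h the difference was 0.43, a call that ended with the offset (0.23, adjusted p = 0.0545), and from 6 to 12 h it was -0.44 (adjusted p = 0.00746), a call that ended without 6 h replicate 2. The call at 24 h (0.35) ended without 0 h replicate 1 or 3, without 24 h replicate 2 or 3, with averaged replicates and with the offset (0.16, adjusted p = 0.204).

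EIF2AK3, the PERK kinase, had 7.59, 9.16 and 9.65 CPM at 0 h, 9.43 and 6.93 CPM at 1 h and 8.97, 7.53 and 10.1 CPM at 3 h. It had 9.48, 15.7 and 13.4 CPM at 6 h, 11.2, 13.8 and 11.7 CPM at 12 h and 15.1, 17.5 and 15.7 CPM at 24 h. All libraries at 12 h and 24 h lay above all at 0 h, and 1 library at 6 h lay within the range of 0 h. The log2 fold change at 24 h was 0.87 (SE 0.16, edgeR adjusted p = 5.7e-04), and 0.73 with the offset. The calls at 6 h against 0 h (0.55) and against 3 h (0.53) each ended without 6 h replicate 2 or 3 and with averaged replicates, the first also without 0 h replicate 1 and the second also without 3 h replicate 2.

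ATF6, the membrane-bound transcription factor, had 68.4, 73.2 and 75.6 CPM at 0 h, 66.1 and 61.2 CPM at 1 h and 59.3, 55.6 and 62.1 CPM at 3 h. It had 80.3, 86.2 and 84.6 CPM at 6 h, 76.3, 84.1 and 78.2 CPM at 12 h and 84.7, 89.3 and 86.7 CPM at 24 h. The libraries at 1 h and 3 h lay below, and those at 6 h, 12 h and 24 h above, all at 0 h. The log2 fold change at 3 h was -0.30 (SE 0.0631, edgeR adjusted p = 0.00337), and from 3 to 6 h it rose by 0.50 (adjusted p = 1.6e-05; 0.24 with the offset). The call at 24 h (0.26, adjusted p = 0.00297) ended with the offset (0.03, adjusted p = 0.581).

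XBP1, whose spliced form encodes an activator of ERAD and secretory genes, had 56.7, 57.8 and 63 CPM at 0 h, 62.5 and 61.7 CPM at 1 h and 50.2, 52.5 and 56.2 CPM at 3 h. It had 69, 68.4 and 66.3 CPM at 6 h, 66.4, 78 and 70.6 CPM at 12 h and 71.7, 62.7 and 66.5 CPM at 24 h. The libraries at 6 h and 12 h all lay above those at 0 h and 3 h, and those at 3 h all lay below those at 0 h. At 3 h its log2 fold change was -0.16, not called in the main fit, and -0.21 with the offset (edgeR adjusted p = 0.0176). The rise from 3 to 6 h was 0.36 (SE 0.0711, edgeR adjusted p = 5.9e-04) and 0.51 with the offset, and it was called under every alternative. Against 0 h the call at 12 h (0.28) ended without 0 h replicate 1, 0 h replicate 2 or 12 h replicate 2. MBTPS2, the intramembrane protease that releases ATF6, had the largest rise of any member from 3 to 6 h, from 16.8, 17.5 and 19.9 CPM at 3 h to 29.2, 35.3 and 37.7 CPM at 6 h (log2 0.92, SE 0.149, adjusted p = 1.8e-04; 0.67 with the offset). MBTPS1, the protease that cuts first, was 0.28 higher at 24 h than at 0 h on the log2 scale (adjusted p = 0.00118; 0.19 with the offset).

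**Figure D3:**
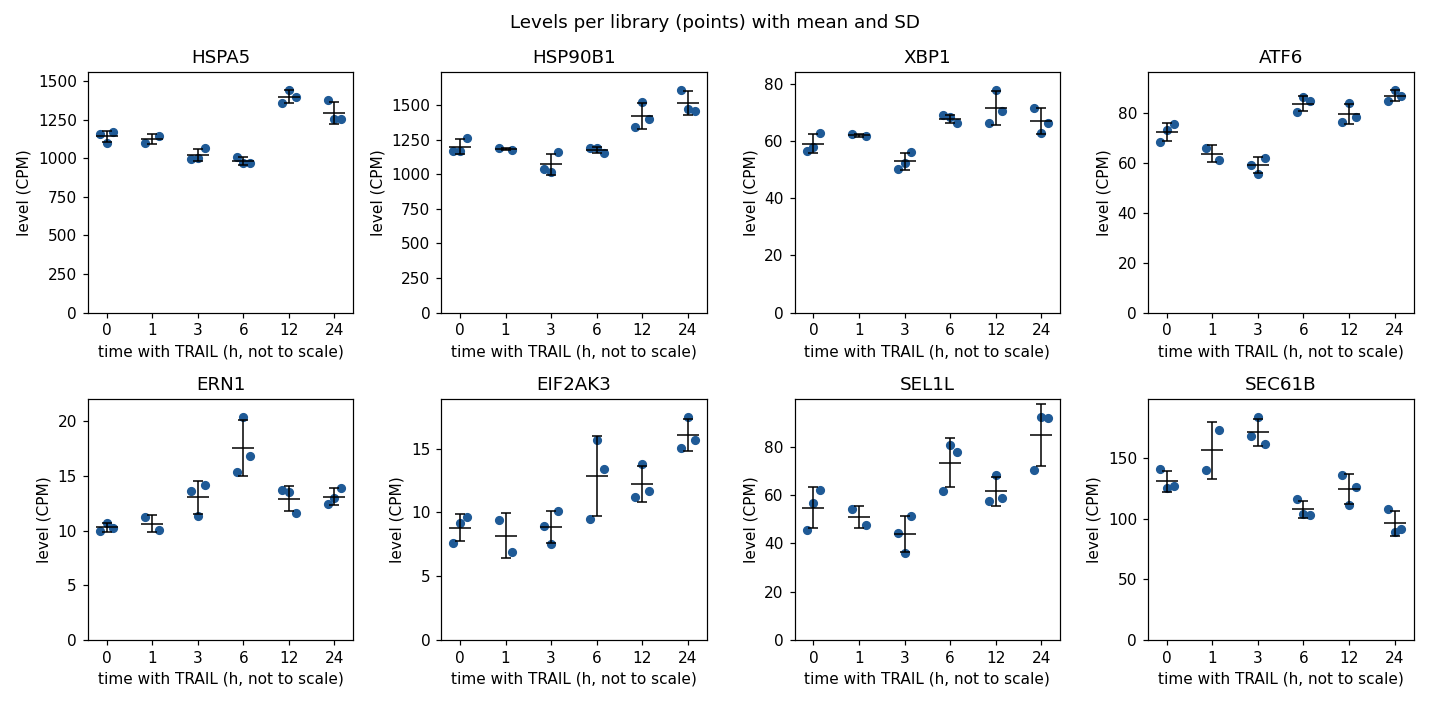
Level in CPM (y axis, from 0) of 8 members in each library (points) by time with TRAIL (x axis, not to scale), with the mean and SD of each group. HSPA5 and HSP90B1 are highest at 12 or 24 h, ERN1 is highest at 6 h, and EIF2AK3 is highest at 24 h. SEC61B runs opposite to most members, with its highest group at 3 h and its lowest at 24 h.

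The 3 lectin-cycle genes, which hold glycoproteins in the ER until they fold, were all higher at 24 h, where 18% of all genes were. CALR, the soluble lectin, had 1386, 1419 and 1412 CPM at 0 h and 1792, 1573 and 1613 CPM at 24 h, without overlap (log2 0.24, edgeR adjusted p = 0.00527; 0.36 with the offset). CANX, its membrane-bound relative, had 939, 1040 and 1107 CPM at 0 h, 1063 and 906 CPM at 1 h and 821, 742 and 914 CPM at 3 h. It had 1075, 1306 and 1279 CPM at 6 h, 1031, 1207 and 1110 CPM at 12 h and 1227, 1382 and 1411 CPM at 24 h. Its libraries at 3 h lay below and those at 24 h above all at 0 h. It rose by 0.56 from 3 to 6 h (SE 0.0947, adjusted p = 2.0e-04; 0.39 with the offset) and by 0.38 at 24 h against 0 h (SE 0.0944, adjusted p = 0.00478; 0.25 with the offset). Its call at 3 h (-0.32) ended without 0 h replicate 2 or 3 and without 3 h replicate 1 or 2. UGGT1, the folding sensor that marks misfolded glycoproteins for another round, averaged 69.4 ± 5.81 CPM at 0 h and 98.6 ± 12.2 at 24 h (SD, n = 3 each; log2 0.51, adjusted p = 9.0e-04; 0.26 with the offset).

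Of the 8 disulfide and proline isomerases and oxidases, 4 were not called by the joint test, which called 64.2% of all genes: PDIA3, PDIA5, ERO1A and ERO1B. Over all 17 libraries PDIA3 lay between 454 and 563 CPM, PDIA5 between 12.8 and 15.9, ERO1A between 169 and 214 and ERO1B between 2.41 and 4.27. With the offset ERO1A, the oxidase that recharges P4HB, was called lower than at 0 h at 6 h (-0.27, adjusted p = 4.5e-05), 12 h (-0.26, adjusted p = 1.2e-04) and 24 h (-0.23, adjusted p = 1.6e-04). The main values were -0.10, -0.16 and -0.05. PDIA3, the isomerase that works with the lectins, was called lower at 6 h with the offset (-0.24, adjusted p = 0.004; -0.15 in the main fit). P4HB, the founding disulfide isomerase, had 918, 949 and 935 CPM at 0 h, 913 and 940 CPM at 1 h and 863, 939 and 849 CPM at 3 h. It had 887, 888 and 868 CPM at 6 h, 762, 788 and 826 CPM at 12 h and 917, 843 and 868 CPM at 24 h. The libraries at 12 h lay below those of every other time. At 12 h the log2 fold change was -0.24 (SE 0.055, edgeR adjusted p = 0.00853), called under every alternative, and no other comparison of this gene was called in the main fit. With the offset P4HB was also called lower from 6 to 12 h (-0.14, adjusted p = 0.00459) and higher from 12 to 24 h (0.16, adjusted p = 0.00333). PDIA4 and PDIA6, also disulfide isomerases, were lower at 3 h, PDIA4 by a log2 difference of -0.22 (adjusted p = 0.00349) and PDIA6 by one of -0.30 (adjusted p = 0.00397). PDIA6 then rose from 3 to 6 h (0.33, adjusted p = 5.2e-04).

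PPIB, a luminal proline isomerase, ran opposite to most members. It had 468, 449 and 441 CPM at 0 h, 451 and 519 CPM at 1 h and 511, 557 and 473 CPM at 3 h. It had 392, 344 and 331 CPM at 6 h, 437, 396 and 436 CPM at 12 h and 406, 325 and 332 CPM at 24 h. All libraries at 3 h lay above, and all from 6 h on below, those at 0 h. Its log2 fold change at 6 h against 0 h was -0.35 (SE 0.0862, edgeR adjusted p = 0.00578; -0.12 with the offset), and at 24 h it was -0.35, a call that ended with the offset (-0.08, adjusted p = 0.0837). Counts of P4HB, PDIA6 and PPIB were not whole numbers in any of the 17 libraries, so reads were divided between these and other entries, and the values are uncertain to that extent. The same held for SYVN1 in all 17, and in 9 to 16 libraries for HYOU1, PDIA3, DNAJB11, DERL1, DERL2, HSP90B1, MBTPS2, CALR and EDEM1.

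The 4 J-domain proteins hand clients to HSPA5, and 1 of them was called at 3 h, where 17.7% of all genes were called. This was DNAJB9 (ERdj4), an XBP1 target that represses IRE1. It had 15, 15.9 and 15.9 CPM at 0 h, 16 and 16.3 CPM at 1 h and 12.3, 11.5 and 13.1 CPM at 3 h. It had 13.5, 16.3 and 16.1 CPM at 6 h, 15.1, 17.1 and 15.4 CPM at 12 h and 15.3, 16.2 and 18.1 CPM at 24 h. The libraries at 3 h lay below those of every other time. Its log2 fold change at 3 h was -0.34 (SE 0.0969, edgeR adjusted p = 0.0195), a call that ended without 0 h replicate 2 or 3 and without 3 h replicate 1 or 2. DNAJC3 and DNAJC10 were higher at 24 h (0.30 and 0.32), calls that ended with the offset (adjusted p = 0.142 and 0.493), that of DNAJC10 also with averaged replicates. From 3 to 6 h DNAJC10 was at 0.24 in the main fit and -0.10 with the offset. Its length was taken as 20129 bases, the longest among the members, and its values with the offset depend on that length. DNAJB11 was not called at any time against 0 h in the main fit. With the offset it was called higher at 12 h (0.13, edgeR adjusted p = 0.0488; 0.12 in the main fit).

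Of the 9 ERAD genes tested, 6 rose and 2 fell from 3 to 6 h, where 22.9% of all genes were higher and 20.3% lower. The calls of DERL1, EDEM1 and EDEM2 among them each ended when a single library of 3 h or 6 h was left out. SEL1L, the scaffold of the HRD1 ubiquitin ligase, had 45.6, 56.5 and 62.2 CPM at 0 h, 54.1 and 47.5 CPM at 1 h and 44.2, 36.1 and 51.1 CPM at 3 h. It had 61.8, 80.7 and 77.7 CPM at 6 h, 57.5, 68.3 and 58.6 CPM at 12 h and 70.2, 92.3 and 92 CPM at 24 h. The libraries at 6 h lay above those at 3 h, and those at 24 h above those at 0 h. It rose by 0.74 from 3 to 6 h (SE 0.151, edgeR adjusted p = 0.0012; 0.45 with the offset) and by 0.63 at 24 h against 0 h (SE 0.146, adjusted p = 0.0044; 0.39 with the offset). SYVN1, the HRD1 ligase itself, averaged 83.5 ± 5.03 CPM at 0 h and 81.7 ± 2.82 at 24 h (SD, n = 3 each), and was called in none of the comparisons.

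HERPUD1, a stress-induced ERAD factor, had 40.2, 39.2 and 41.1 CPM at 0 h, 34.3, 32.6 and 33.2 CPM at 3 h, 40.3, 38.9 and 41.6 CPM at 6 h and 46.1, 47.3 and 48.6 CPM at 12 h. The libraries at 3 h lay below, and those at 12 h above, all at 0 h and 6 h. Its log2 fold change at 3 h was -0.27 (SE 0.0608, edgeR adjusted p = 0.00517). It rose by 0.27 from 3 to 6 h (adjusted p = 0.00143) and by 0.23 from 6 to 12 h (adjusted p = 0.00814). The call at 12 h against 0 h (0.24) ended without 0 h replicate 2 and without a filter on low counts. At 24 h it averaged 41.6 ± 1.24 CPM, against 40.2 ± 0.915 at 0 h (SD, n = 3 each), and was not called (0.05, adjusted p = 0.544).

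EDEM3, a mannose-trimming enzyme that commits glycoproteins to ERAD, had 30.6, 34.8 and 40.3 CPM at 0 h, 36 and 25.5 CPM at 1 h and 33, 25.2 and 32.9 CPM at 3 h. It had 41.6, 59.4 and 59.4 CPM at 6 h, 41.2, 49.3 and 51 CPM at 12 h and 45.3, 59.6 and 59.4 CPM at 24 h. All libraries from 6 h on lay above those at 0 h. It rose by 0.82 from 3 to 6 h (SE 0.176, edgeR adjusted p = 0.00195; 0.52 with the offset). The call at 24 h against 0 h (0.64, adjusted p = 0.0108; 0.41 with the offset) ended without 0 h replicate 1. EDEM1, of the same family, rose by 0.42 at 24 h (adjusted p = 9.4e-04; 0.23 with the offset), while EDEM2 was not called at 24 h (0.05) and rose from 6 to 12 h (0.35, adjusted p = 0.00462). DERL2, a channel component of retrotranslocation, stood at a log2 fold change of -0.33 from 3 to 6 h (adjusted p = 6.0e-04) and -0.26 at 24 h against 0 h (adjusted p = 0.00505), and of -0.53 and -0.39 with the offset. DERL1 was not called at any time against 0 h. OS9, the lectin that delivers glycoproteins to SEL1L, rose by 0.29 from 3 to 6 h (adjusted p = 7.4e-04) and by 0.27 from 12 to 24 h (adjusted p = 0.00673).

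Translocon genes, whose products bring new chains into the ER, split by subunit. SEC61B, the small beta subunit, had 141, 125 and 127 CPM at 0 h, 140 and 173 CPM at 1 h and 168, 184 and 162 CPM at 3 h. It had 116, 104 and 103 CPM at 6 h, 136, 111 and 126 CPM at 12 h and 108, 88.7 and 91.6 CPM at 24 h. The libraries at 3 h lay above, and those at 6 h and 24 h below, all at 0 h. It rose by 0.38 at 3 h (SE 0.092, edgeR adjusted p = 0.00812; 0.14 with the offset). The log2 fold change from 3 to 6 h was -0.67 (adjusted p = 5.5e-05; -0.19 with the offset), and at 24 h against 0 h it was -0.45 (adjusted p = 0.00143; -0.13 with the offset).

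SEC63, which couples the channel to HSPA5, had 74.7, 76.6 and 83.9 CPM at 0 h, 80.6 and 64.5 CPM at 1 h and 63.8, 55.4 and 66.1 CPM at 3 h. It had 77.1, 87.7 and 89.6 CPM at 6 h, 81.7, 92.7 and 85.3 CPM at 12 h and 81.7, 87.2 and 87.9 CPM at 24 h. Its libraries at 3 h lay below those at 0 h. It rose by 0.46 from 3 to 6 h (SE 0.0865, edgeR adjusted p = 4.1e-04; 0.18 with the offset). Its call at 3 h (-0.34) ended without 0 h replicate 3 or 3 h replicate 2. SEC61A1, the channel-forming subunit, rose by 0.30 from 3 to 6 h (adjusted p = 5.7e-04), and SEC62, a partner of SEC63, was not called at any time against 0 h in the main fit. With the offset SEC62 was called lower at 24 h (-0.24, adjusted p = 0.00285; -0.03 in the main fit). From 3 to 6 h it went from called higher (0.16) to called lower (-0.15, adjusted p = 0.0456) with the offset, and the first call also ended without 3 h replicate 1 or 2 and without 6 h replicate 2 or 3. Counts of SEC61A1 and SEC63 were not whole in any library.

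SEC61B, SDF2L1 and PPIB have the shortest transcripts of the 41 members, at 587, 865 and 1081 bases. Across the 41 members, the log2 fold change from 3 to 6 h had a Pearson correlation of 0.69 with log2 transcript length in the main fit and 0.15 with the offset. At 24 h against 0 h these were 0.64 and 0.10, and at 3 h against 0 h -0.31 and 0.05. These are descriptions over genes that share the same libraries. The offset removes each library's trend on length over all genes. A smaller correlation with the offset therefore follows largely from how it was made, and is no test of length. The part of transcript length in the fold changes was not tested.

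**Figure D4:**
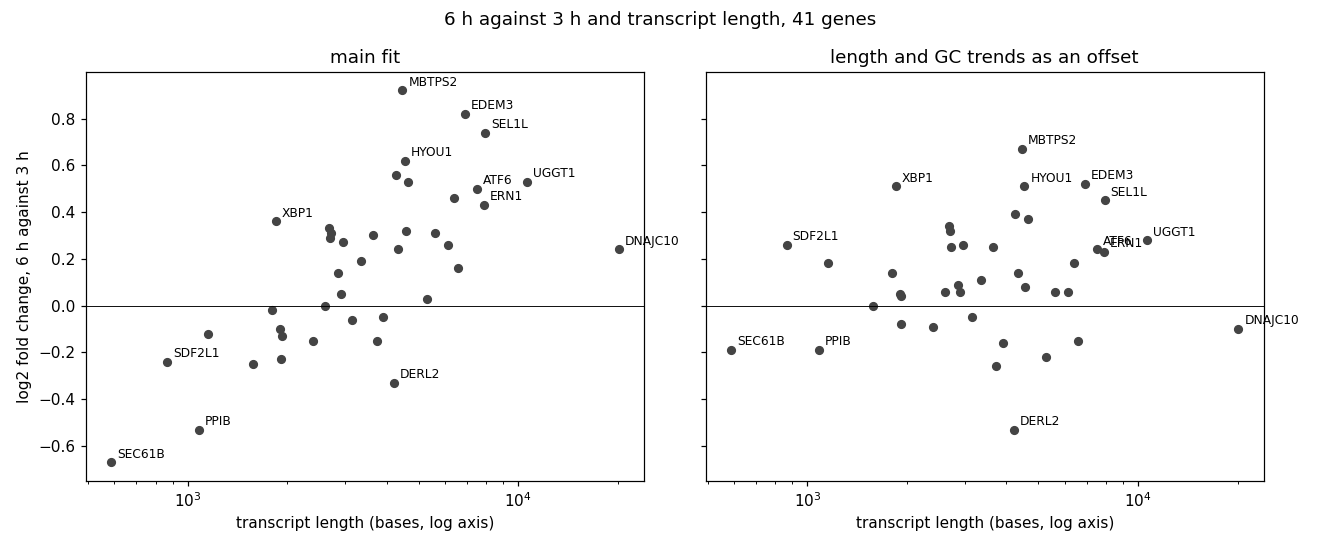
Log2 fold change from 3 to 6 h (y axis) against transcript length (x axis, log scale) for the 41 members, in the main fit (left) and with length and GC trends as an offset (right). The points rise with length on the left (Pearson 0.69) and much less on the right (0.15), and MBTPS2 is highest in both (0.92 and 0.67). The offset removes such trends over all genes, so a flatter right panel is no test of length.

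Each gene with an ERSE or ERSE-II match shown above had a log2 fold change below 0 at 3 h against 0 h, as did 32 of all 41 members. Of the genes with a match, CANX, PDIA6, HYOU1 and HERPUD1 were called lower, where 10 of all 41 members and 8.71% of all genes were. With the offset these genes were again called lower, and so were HSPA5 (-0.15), HSP90B1 (-0.13), XBP1 (-0.21) and SDF2L1 (-0.37). CALR, CRELD2 and ERO1B were not called at 3 h with the offset. The HYOU1 call (-0.31) ended without 0 h replicate 2 or 3 and without 3 h replicate 1 or 2. At 24 h, HSP90B1 (0.34), CALR (0.24), CANX (0.38), PDIA6 (0.24), HYOU1 (0.52) and HSPA5 (0.18) were higher. Over all 41 members 18 were higher and 5 lower, where 18% of all genes were higher and 17.1% lower. The PDIA6 call ended without 0 h replicate 1. CRELD2 was at -0.37 and SDF2L1 at -0.31, and XBP1 (0.18), ERO1B (0.14) and HERPUD1 (0.05) were not called. With the offset none of these genes was called lower at 24 h: CRELD2 was at -0.14 (adjusted p = 0.147) and SDF2L1 at 0.12 (adjusted p = 0.229). XBP1 was then called higher (0.28, adjusted p = 0.00107), and the call of HSPA5 ended. By mean level HSPA5, XBP1 and HERPUD1 were highest at 12 h, and HYOU1, HSP90B1, CALR, CANX, PDIA6 and ERO1B at 24 h.

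**Figure D5:**
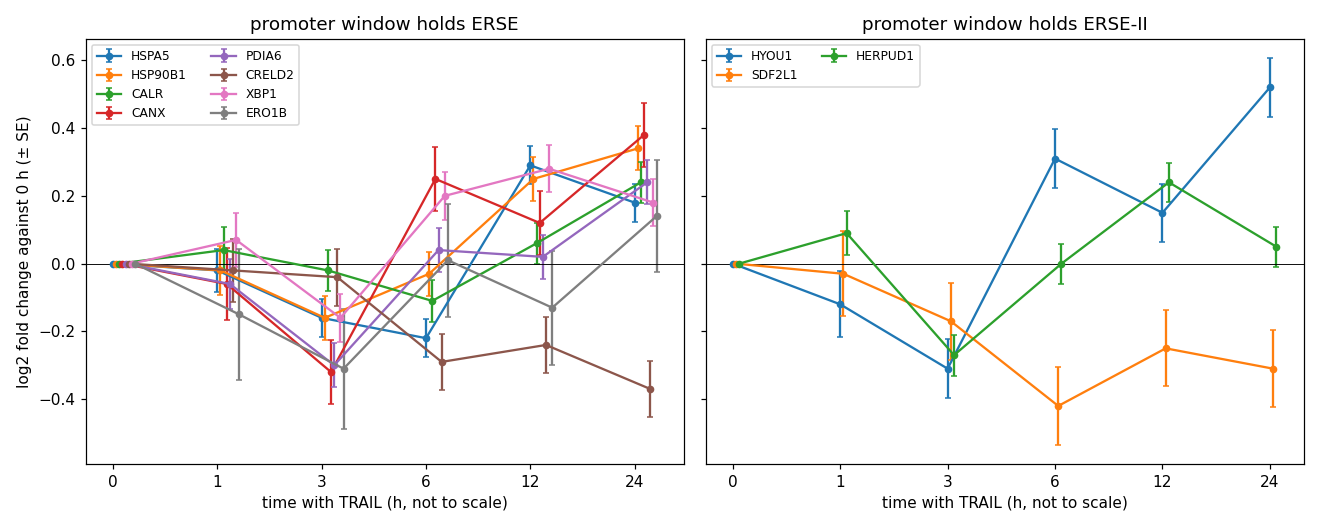
Log2 fold change against 0 h (y axis, bars SE) by time with TRAIL (x axis, not to scale) for the 8 genes with an ERSE (left) and the 3 with an ERSE-II (right) in the promoter window. All lines lie at or below 0 at 3 h, and at 24 h they run from -0.37 (CRELD2) to 0.52 (HYOU1).

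Genes of neighbouring pathways were counted from lists chosen with earlier results of these data known. Of 15 genes of the PERK arm and targets of ATF4 and CHOP, 10 were lower and 1 higher at 24 h than at 0 h, where 17.1% of all genes were lower and 18% higher. The median log2 fold change was -0.57 over the list and -0.00 over all genes. The lower count was 10 with each library left out in turn. CHAC1, an ATF4-induced enzyme that degrades glutathione, averaged 13.5 ± 1.97 CPM at the start (0 h), 6.59 ± 1.46 at 3 h and later 4.96 ± 0.542 at 24 h (SD, n = 3 each). Its log2 fold changes against 0 h were -1.04 at 3 h (edgeR adjusted p = 1.3e-04) and -1.44 at 24 h (adjusted p = 3.4e-06). DDIT4, an inhibitor of mTORC1, was the gene that rose, from 77.7 ± 2.86 to 124 ± 3.72 CPM (0.67, adjusted p = 1.4e-06). At 3 h, PPP1R15A (GADD34), which reverses the translational block of PERK, rose from 202 ± 7.55 to 294 ± 19.8 CPM (0.54, adjusted p = 2.5e-06), with 5 of the list lower, where 8.71% of all genes were lower.

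Of 25 genes of COPII coats and ER export, 14 were higher and 0 lower at 24 h, where 18% of all genes were higher and 17.1% lower, and with single libraries left out 11 to 14 were higher. From 3 to 6 h, 15 rose and 1 fell, where 22.9% of all genes were higher and 20.3% lower. SEC24A, a cargo-binding coat protein, rose from 23.2 ± 1.91 to 44.6 ± 7.37 CPM at 24 h (0.94, edgeR adjusted p = 3.3e-04), and its counts were not whole in 16 libraries. SEC23A, its partner, rose by 0.91 from 3 to 6 h (adjusted p = 1.9e-04). Of 14 further ER stress factors, 7 were higher and 1 lower at 24 h, among them CREB3L2 (0.53, adjusted p = 5.1e-04). In the larger lists the directions were mixed. At 24 h, 3 of 34 other folding enzymes were higher and 3 lower, and with single libraries left out 2 to 4 were higher and 2 to 7 lower. Of 33 translocation and glycosylation genes 7 were higher and 7 lower, and of 28 other ERAD genes 10 were higher and 3 lower. Without 0 h replicate 1, these lists had 3 and 4 higher genes. Without 24 h replicate 2 the translocation list had 3 lower genes.

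SELENOS, the newer symbol of VIMP, encodes an ERAD membrane protein. It averaged 55.2 ± 0.853 CPM at 0 h and 64.2 ± 1.20 at 12 h (SD, n = 3 each; log2 0.22, edgeR adjusted p = 0.0226), a call that ended without 0 h replicate 1 or 2, without any 1 library of 12 h and without a filter on low counts. At 24 h it averaged 55.4 ± 4.57 CPM and was not called against 0 h (0.01, adjusted p = 0.936).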

How the data were processed

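The authors deposited 1 table of expected counts, estimated counts per gene that need not be whole, for 17 libraries. Of all values 10.8% were not whole, and of the values above 0 the share was 30.6%. Per the submitters' processing notes, cutadapt 1.18, STAR 2.7.0f and the build hg38 were used. The counter's version, annotation and strand setting are not given in the sources used here. Columns were assigned to libraries by the labels.

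Expected counts were rounded, filtered with edgeR's filterByExpr and scaled by TMM. All groups were fitted together with edgeR's robust quasi-likelihood test (edgeR 4.0.16, R 4.3.3), with no replicate block, and p-values were adjusted by Benjamini-Hochberg over all 15365 genes. CPM values are TMM-scaled. Values per library were given for HSPA5, XBP1, ATF6, ERN1 and EIF2AK3, and, at each time against 0 h, for the 3 highest and 3 lowest called members whose mean log2 CPM was 2 or more. Values per library of other members were chosen after their values were seen. The 42 members and all lists were chosen with earlier results of these data known. Alternatives were RLE scaling, library size alone, no low-count filter, a filter at a mean of 10 counts, the tools limma-voom (limma 3.58.1) and DESeq2 1.42.0, a fit without the other groups, a block for the replicate number, replicates 2 and 3 averaged at 6 h and 24 h, length and GC trends as an offset with and without that block, each library left out, and motifs within 200 bases of the start. Leaving out mitochondrial counts was added after seeing the data. In data simulated for 24 h against 0 h over 15365 genes, 75% of genes changed by 0.5 and 100% of those changed by 1 (log2) were recovered, with 16 false calls. Only 200 genes were changed there, with no length or GC trend and no replicates closer than others, so these rates may not carry over to the real libraries. Library totals of 13731497 to 19234939 counts limit the precision of low genes such as ERO1B.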

Additional observations from a re-analysis of the deposited data

How the results depend on the processing

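Counts of members called depended on single libraries in most comparisons. With each library left out in turn, the members called numbered 5 to 15 in the comparison of 3 h with 0 h, 7 to 21 in that of 6 h, 3 to 8 in that of 12 h, 18 to 24 in that of 24 h, 0 to 3 from 1 to 3 h, 19 to 30 from 3 to 6 h, 5 to 13 from 6 to 12 h and 2 to 14 from 12 to 24 h. With replicates 2 and 3 averaged, 7 members were called at 6 h against 0 h and 2 from 12 to 24 h. With the length and GC offset, 10 members were called at 12 h against 0 h, 9 from 1 to 3 h and 19 from 12 to 24 h. With the offset and the replicate block together, the members called were 19 at 3 h, 10 at 12 h, 9 from 1 to 3 h and 20 from 12 to 24 h. From 1 to 3 h, 5 members were called without a filter on low counts and 0 in a fit of only the 2 groups. The shares of all genes called in these alternative fits are not given here. Whether the shifts are particular to the members, and their cause, was not tested.

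Among the members whose values are given per library, the changes of sign in values called in the main fit or with the offset were those of SDF2L1. SDF2L1 went from -0.31 to 0.12 at 24 h against 0 h, and to 0.12 with the block, and from -0.24 to 0.26 from 3 to 6 h, and to 0.26 with the block. CRELD2 went from -0.25 to 0.00 from 3 to 6 h, with and without the block. Among the other members, from 3 to 6 h the offset took SEC62 from 0.16 to -0.15, DNAJC10 from 0.24 to -0.10, MANF from -0.12 to 0.18 and ERO1A from 0.03 to -0.22. The cause was not tested.

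Of 40 same-numbered pairs of libraries, 19 had a correlation of deviations over 0.1, with a median of 0.0167. Among 80 pairs with other numbers, 30 were over 0.1, with a median of -0.0370. Of 17 libraries, 8 correlated best with their own number. These values do not settle whether the replicate numbers pair the libraries. With the replicate block, members called numbered 11 for 3 h, 19 for 6 h, 6 for 12 h and 23 for 24 h against 0 h, 3 from 1 to 3 h, 27 from 3 to 6 h, 11 from 6 to 12 h, 13 from 12 to 24 h and 34 in the joint test. Scaling alternatives moved the median of all genes by at most 0.074 (log2). With the window shortened to 200 bases before the start, 6 members held an ERSE.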
